A study of Mus musculus with 9 samples.

Results

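The genes described are 43 protein-coding genes of the mitochondrial respiratory chain and the ATP synthase in sorted group 2 innate lymphoid cells (ILC2s) of the mouse. They comprise all 13 messages of the mitochondrial genome and 30 nuclear genes for subunits of complexes I to V and cytochrome c. Members were the rows of the deposited count table whose symbol, or whose Ensembl identifier's mouse symbol, was on the list. The table gives mitochondrial genes short symbols such as ND1 and COX1, so these were matched by identifier. Of the 43 genes, 40 had a row among the 23466 genes of the table, 10 of them mitochondrial and all 30 nuclear. After the filter on low counts, 37 were tested among 15117 genes, 7 mitochondrial and 30 nuclear. The mitochondrial genes mt-Co3, mt-Atp8 and mt-Nd4l are not analysed here, and mt-Co2, mt-Atp6 and mt-Nd3 did not pass the filter.

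All mice were wild-type animals of the C57BL/6J strain, 10 weeks old. The 3 groups of 3 libraries were ILC2s from brain meninges of uninjured mice, from brain meninges of mice whose spinal cord had been bruised with a force of 80 kdyn (contusion) 24 h earlier, and from lungs of uninjured mice. Living cells were sorted as CD45-positive and lineage-negative with ST2 and Thy1 on the surface, and the RNA was amplified before sequencing. Per the labels 5 mice were pooled per group, and nothing says that the libraries came from separate pools, so the p-values reflect only how far these libraries scatter, and that scatter may be technical. The labels name no sham-operated group.

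The respiratory chain passes electrons from NADH (complex I) and succinate (complex II) through complex III and cytochrome c to oxygen (complex IV). The proton gradient this builds across the inner mitochondrial membrane drives the ATP synthase (complex V). Complex II and cytochrome c are encoded wholly in the nucleus, whereas complexes I, III, IV and V mix nuclear subunits with subunits made from mitochondrial DNA, so their assembly depends on both genomes. Resting lymphocytes cover much of their ATP need by this route, and ILC2s are known for their use of fatty acids as fuel.

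The libraries held 13407277 to 18253462 counts and 13465 to 18452 genes with a count. Injured meninges 2 had the fewest genes. The limit that a count of 0 allows in a library, 3 counts, corresponded to 0.163 to 0.239 CPM. CPM, the usual count unit scaled for depth, here rests on library sizes adjusted by the trimmed mean of M values. Such limits cover counting error alone, since reads from amplified cDNA do not each stand for a separate molecule. The ILC2 markers Il1rl1 (the ST2 gene), Ptprc (CD45) and Gata3 were present in every library, at 1852 to 2694, 1301 to 2069 and 495 to 646 CPM. Thy1, used for the sort, was lower after injury, at 68 ± 21.6 CPM against 225 ± 56.3 in uninjured meninges (SD, n = 3 each; edgeR adjusted p = 0.022). Of 11 ILC2 markers read, edgeR called Thy1 alone after injury (0.192% of all genes) and 0 between uninjured meninges and lung (0.635%). An unadjusted edgeR p under 0.05 was had by 4 of the 11 in each comparison (8.94% and 7.98% of all genes). DESeq2 called Thy1 and, as higher, Rora after injury (2.86% of all genes called). Between uninjured meninges and lung DESeq2 called Rora and Klrg1 as lower and Il17rb as higher in meninges (3.53% of all genes). In bulk samples such as these, fewer cells of a type and less RNA per cell cannot be told apart.

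Mitochondrial messages differed widely in how much of their sequence they share with nuclear genes. The mouse nuclear genome carries copies of mitochondrial DNA, annotated as pseudogenes, and a read that lies equally well in both places has no unique origin. Transcripts of GENCODE M21 were cut into overlapping windows of 50 bases, and each window was looked up in the transcripts of all other genes. All windows of mt-Co2 recurred in another gene (100%), as did 99.9% of those of mt-Co3, 99.5% of mt-Atp6, 98.8% of mt-Nd4l and 98% of mt-Nd3. Shares were 62.2% for mt-Nd4 and 51.1% for mt-Co1, 8.19% for mt-Nd2 and 7.61% for mt-Nd5. No window of mt-Nd1, mt-Nd6, mt-Cytb or mt-Atp8 recurred in another annotated transcript. Nuclear copies outside annotated transcripts were not searched.

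The first pair of sequences below shows a message whose nuclear copy has the same letters, the second a copy with a single change, and the last pairs more divergent copies. Each is 60 bases of the transcript, 5′ to 3′, with capitals at the bases of the copy that differ from the mitochondrial message.
mt-Co2, bases 61 to 120: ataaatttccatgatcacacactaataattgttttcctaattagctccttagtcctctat
Gm28661, bases 61 to 120: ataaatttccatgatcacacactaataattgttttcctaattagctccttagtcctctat
mt-Nd3, bases 1 to 60: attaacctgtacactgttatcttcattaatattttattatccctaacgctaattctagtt
Gm28438, bases 1 to 60: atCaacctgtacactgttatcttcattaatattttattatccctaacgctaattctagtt
mt-Cytb, bases 561 to 620: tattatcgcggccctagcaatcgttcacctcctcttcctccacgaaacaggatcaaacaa
Gm11410, bases 561 to 620: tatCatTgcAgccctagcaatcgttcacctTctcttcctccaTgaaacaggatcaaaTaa
mt-Nd6, bases 274 to 333: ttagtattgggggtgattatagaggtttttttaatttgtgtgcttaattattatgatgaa
Gm11408, bases 274 to 333: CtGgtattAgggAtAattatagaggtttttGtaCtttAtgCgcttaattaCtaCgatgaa

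The copy Gm28661 matched mt-Co2 at all 681 aligned bases. Gm28437 likewise matched mt-Co3 over 783 bases, Gm10925 matched mt-Atp6 over 678 and Gm10222 matched mt-Nd4l over 294. Gm28438 differed from mt-Nd3 at 1 of 345 bases (99.7% identity). The 5 messages with a near-identical copy over their whole length were thus the subunit II and III genes of complex IV, an ATP synthase gene and 2 small complex I genes. By contrast, Gm11410 was 92.8% identical to mt-Cytb (82 differences in 1143 bases), and Gm11408 was 93.6% identical to mt-Nd6 (33 in 519).

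Among the 10 messages with a row, those with such a copy had few counts. Of the messages without a row, mt-Co3 and mt-Nd4l have such a copy, whereas mt-Atp8 has no shared window. For mt-Co2 these were 2 in uninjured meninges 1 and 1 in injured meninges 1, and for mt-Atp6 3 in uninjured meninges 1 and 1 in injured meninges 3, with 0 in the other libraries. For mt-Nd3 they were 3, 5 and 1 in uninjured meninges, 1, 0 and 2 after injury, and 4, 2 and 5 in lung. Their nuclear copies also had few, with 5 to 11 counts per library for Gm28661, 2 to 14 for Gm10925 and 0 to 3 for Gm28438. Messages with unshared stretches had far more, from 2628 to 5226 counts per library for mt-Nd6 up to 143606 to 296653 for mt-Co1. For mt-Nd4, bases 1 to 876 are identical to Gm28439 and the rest is its own, and it had 22427 to 33707 counts against 6 to 22 for the copy. Whether reads were dropped for lying in both places was not tested, because the sources used here do not give the counting settings. The counts of mt-Co2, mt-Atp6 and mt-Nd3 are accordingly given as counts in the table and not read as levels of those messages, and levels of mt-Co1 and mt-Nd4 are given per unshared length as well.

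**Figure D1:**
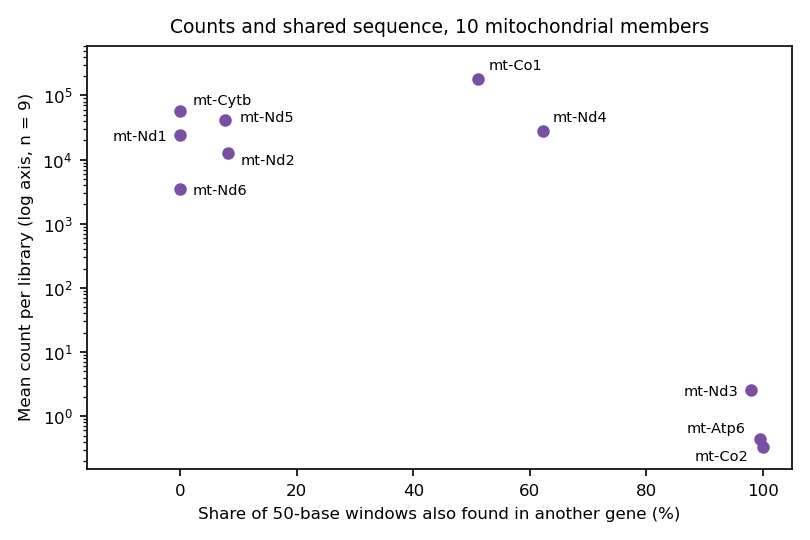
Mean count per library (log axis, n = 9 libraries) of the 10 mitochondrial members with a row, against the share of their 50-base windows found in another gene's transcript. The 3 genes at 98% or more lie at means of 0.333 to 2.56 counts, and the other 7, at 62.2% or less, lie at 3480 or more.

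Mitochondrial RNA made up a large and steady part of every library. The ribosomal RNAs mt-Rnr1 and mt-Rnr2, which build the mitochondrial ribosome, took 27.7% ± 4.13 of counts in uninjured meninges, 26.2% ± 3.81 after injury and 28.1% ± 2.28 in lung (SD, n = 3 each). The 10 mitochondrial messages with a row took 2.43% ± 0.325, 2.16% ± 0.315 and 2.1% ± 0.0868. Of these, mt-Co2, mt-Atp6 and mt-Nd3 had at most 5 counts each in any library. The sum thus covers in effect 7 of the 13 messages. The 30 nuclear members together took 0.141% ± 0.00768, 0.132% ± 0.0195 and 0.118% ± 0.015. Ranges of all 3 shares overlapped between injured and uninjured meninges. In each library the mitochondrial messages with a row thus outnumbered the nuclear members 14.7-fold to 19.3-fold in counts.

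The ratio of mitochondrial ribosomal RNA to the mitochondrial messages with a row was 11.6, 11.9 and 10.8 in uninjured meninges. After injury it was 12.8, 10.7 and 13.1, and in lung 13.1, 14 and 13.1. All 3 lung libraries lay above the 3 of uninjured meninges, while injured meninges overlapped with uninjured. These sums over genes are descriptions and were given no test. Taken singly, mt-Rnr1 and mt-Rnr2 differed by -0.01 ± 0.16 and -0.03 ± 0.13 on the log2 scale after injury and by -0.14 ± 0.16 and -0.11 ± 0.13 between uninjured meninges and lung (edgeR adjusted p from 0.98 to 1).

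**Figure D2:**
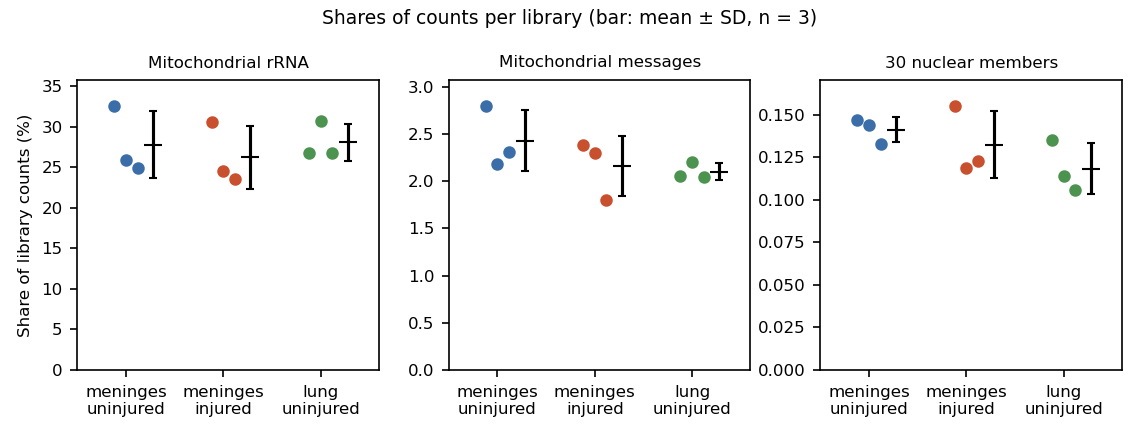
Share of each library's counts (%) in mitochondrial ribosomal RNA, the mitochondrial messages with a row and the 30 nuclear members. Each library has 1 point, and a bar gives mean ± SD (n = 3). Ribosomal RNA runs from 23.5% to 32.5%, messages from 1.8% to 2.79% and nuclear members from 0.106% to 0.155%, and the injured meninges overlap with the uninjured in every panel.

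The 2 comparisons made across all genes were injured against uninjured meninges and uninjured meninges against lung. The first asks what spinal cord injury changes in meningeal ILC2s, and the second how ILC2s of the meninges differ from those of the lung. Both use the uninjured meningeal libraries, so their results are not independent. A gene was called at a Benjamini-Hochberg adjusted p under 0.05 in edgeR's quasi-likelihood test. After injury 29 genes were called (0.192% of those tested), 20 higher and 9 lower, and 0 of the 37 members were among them. At an unadjusted p under 0.05 there were 0 members (8.94% of all genes), and DESeq2 at adjusted p under 0.05 called 0 members (2.86% of all genes). Between uninjured meninges and lung 96 genes were called (0.635%), 6 higher and 90 lower in meninges, again with 0 members. Here 2 members had an unadjusted p under 0.05 (7.98% of all genes), Ndufa10 and Ndufb5, and DESeq2 called both at adjusted p under 0.05 (3.53% of all genes).

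Levels that did not overlap between groups were also few. After injury 2 of 37 members, Ndufb5 and Atp5a1, had every injured library below every uninjured library, and 0 had every one above, while 12.1% of all genes did not overlap. Between uninjured meninges and lung 6 of 37 members stood apart, against 18.2% of all genes. Ndufa10, Ndufb5, Sdha, Cox4i1 and Cox6c were higher in meninges and Cox6a1 was lower. Neither share of members exceeded that of all genes.

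Of the 7 mitochondrial messages tested, mt-Co1, the catalytic subunit of complex IV, had the highest level per length. Its mean over the 9 libraries was 7549 CPM per kb of coding length. Then came mt-Cytb, the complex III subunit cytochrome b, at 3177. The complex I subunits mt-Nd1, mt-Nd5 and mt-Nd4 followed at 1629, 1449 and 1324 CPM per kb, mt-Nd2 at 803 and mt-Nd6 at 429. The order of mt-Nd1, mt-Nd5 and mt-Nd4 was within the spread over libraries. Counted over unshared windows alone, mt-Nd4 would stand at 3636 CPM per kb and mt-Co1 at 15955, so the place of mt-Nd4 depends on the length used. Genes of the mitochondrial genome are transcribed as long precursors, and mt-Nd6 is the sole message on the light strand. Since it lies opposite the end of the mt-Nd5 region and strand use in counting is not given, antisense reads cannot be told apart.

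In CPM, mt-Co1 stood at 16144, 11222 and 11122 in uninjured meninges, 12634, 12659 and 9000 after injury, and 9719, 12049 and 10417 in lung. Uninjured meninges 1 was the highest library and the groups overlapped. Its difference was -0.17 ± 0.17 on the log2 scale (SE) after injury (95% interval -0.53 to 0.19, edgeR adjusted p = 0.84) and 0.26 ± 0.17 between uninjured meninges and lung (-0.10 to 0.62, adjusted p = 0.84). Of the counts of the mitochondrial messages with a row, 49% to 58.2% fell on this gene.

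For mt-Cytb the values were 4065, 3172 and 3867 CPM in uninjured meninges, 3937, 3793 and 2656 after injury, and 3456, 4333 and 3430 in lung. The lowest was injured meninges 3, and its group otherwise lay inside the uninjured range. Its log2 differences were -0.10 ± 0.17 after injury and -0.01 ± 0.17 between tissues.

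Among complex I messages, mt-Nd1 had 1548, 1366 and 1511 CPM in uninjured meninges, 1627, 1681 and 1089 after injury, and 1539, 1980 and 1693 in lung. The next, mt-Nd2, had 910, 765 and 932, then 829, 925 and 483, and in lung 922, 983 and 758. In both genes injured meninges 3 was the lowest and lung 2 the highest library. Levels of mt-Nd4 were 1806, 1447 and 1881 CPM in uninjured meninges, 1762, 1834 and 1474 after injury, and 1683, 2482 and 2056 in lung. Those of mt-Nd5 were 2989, 2046 and 2862, then 2774, 3403 and 2505, and in lung 2330, 2547 and 2338. Finally, mt-Nd6 had 284, 184 and 231 CPM, then 256, 221 and 226, and in lung 200, 194 and 208. All 5 overlapped between groups in both comparisons.

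The complex I log2 differences after injury ran from -0.22 ± 0.22 for mt-Nd2 to 0.14 ± 0.17 for mt-Nd5, and those between uninjured meninges and lung from -0.28 ± 0.18 for mt-Nd4 to 0.22 ± 0.22 for mt-Nd6. Over all 7 messages the median difference was -0.02 after injury and -0.01 between tissues, and the medians over all genes were -0.00 and 0.00. The 95% interval of each of the 7 lay within 2-fold in both comparisons, with no bound farther than 0.69 on the log2 scale. Among all genes, 10.3% after injury and 11.5% between tissues had so narrow an interval. Within groups the coefficient of variation of these messages had a median of 13.6% (7.96% to 18.4%), where counting alone gives a median of 0.597%. Injured meninges 3 was the lowest library for 4 of the 7 messages and lung 2 the highest for 4.

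**Figure D3:**
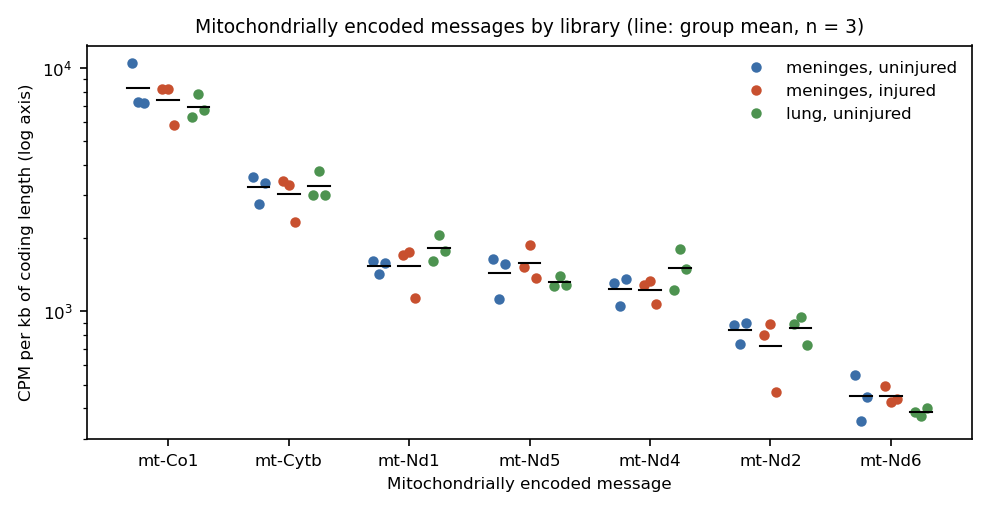
Level of the 7 measured mitochondrial messages in CPM per kb of coding length (log axis), 1 point per library, with a line at each group's mean (n = 3). Levels span from a mean of 7549 for mt-Co1 to 429 for mt-Nd6, and in every gene uninjured meninges overlap with injured meninges and with lung.

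Nuclear members were far scarcer and varied more between libraries. Their median level per coding length was 36.7 CPM per kb (5.3 for Ndufs8 to 220 for Atp5b), against 1449 for the 7 mitochondrial messages. In CPM, 3 of the 30 had a mean of at least 100 and 16 had a mean under 20. Atp5b, Sdha and Atp5a1 together held 44.7% to 57.5% of the nuclear members' counts. The median within-group coefficient of variation was 37.7% (10.2% to 101%), above the median of 6.1% from counting alone. Each nuclear member had a count in every library, except Ndufs8 with 0 in injured meninges 2. That library was the lowest of the 9 for 6 nuclear members and the highest for 6.

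**Figure D4:**
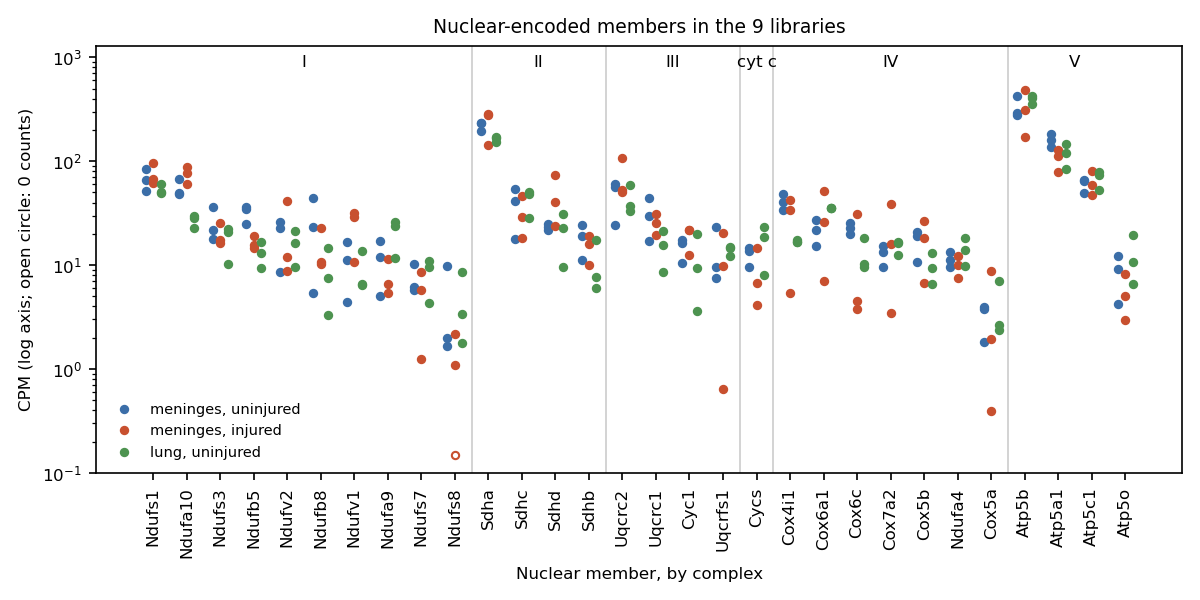
CPM (log axis) of the 30 nuclear members in the 9 libraries, grouped by complex and ordered by mean level, with colours for the 3 groups and an open circle for a count of 0. Atp5b is the highest at a mean of 350 CPM and Ndufs8 the lowest at 3.39, and the points of a group spread most in genes under 20 CPM.

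Of complex I, the NADH dehydrogenase, 10 nuclear subunits were on the list. After injury 4 had a positive and 6 a negative log2 difference (median -0.44), and between uninjured meninges and lung 7 were positive and 3 negative (median 0.31). The supernumerary subunit Ndufa10 had the highest level per coding length in the complex, 49.1 CPM per kb. Over unshared windows of the whole transcript Ndufs3 would lead, at 34.8 against 26.6. Ndufs3 shared 39.7% of its windows, most of them with Gm12251 (35.5%). These are left out of its length while all its counts are kept. Ndufa10 shared 0% of its windows, and its lower value there comes from the length, 2020 bases against 1068 coding. Ndufa10 stood at 68.1, 49.8 and 48.1 CPM in uninjured meninges, 59.9, 77.6 and 88 after injury, and 22.6, 29.5 and 28.5 in lung. All 6 meningeal libraries lay above all 3 of lung, and the meningeal groups overlapped. Its difference between uninjured meninges and lung was 1.04 ± 0.37 on the log2 scale (95% interval 0.26 to 1.83; edgeR unadjusted p = 0.012, adjusted p = 0.35; DESeq2 adjusted p = 0.019). Over 16 alternative settings the difference ran from 0.86 to 1.14, and DESeq2 was the only one in which Ndufa10 was called.

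Ndufb5, a small membrane-arm subunit, had 25, 36.6 and 34.7 CPM in uninjured meninges, 14.7, 15.7 and 19.1 after injury, and 13.2, 9.28 and 16.6 in lung. Uninjured meninges lay above both other groups, which overlapped with each other. The difference was -0.96 ± 0.57 after injury (edgeR adjusted p = 0.67, DESeq2 adjusted p = 0.17) and 1.30 ± 0.57 between uninjured meninges and lung (edgeR unadjusted p = 0.037, adjusted p = 0.55; DESeq2 adjusted p = 0.021). Both differences use the same 3 uninjured libraries. Ndufb5 shared 16.2% of its windows with its overlapping neighbour Mrpl47, a mitochondrial ribosomal protein gene. Mrpl47 had 5.51 to 7.16 CPM in uninjured meninges, 4.72, 0 and 8.65 in injured meninges and 4.05 to 4.98 in lung, below Ndufb5 in each library.

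The other 8 complex I members ranged from Ndufs1, the largest iron-sulfur subunit, at a mean of 65.5 CPM, down to Ndufs8, another iron-sulfur subunit, at 3.39. Ndufs8 counts were 179, 31 and 25 in uninjured meninges, 18, 0 and 35 after injury, and 55, 117 and 28 in lung. Its interval after injury, -5.59 to 1.54 on the log2 scale, was the widest of the 37 in that comparison. Ndufv1, which binds the flavin that takes electrons from NADH, had the highest difference after injury at 1.15 ± 0.77 (adjusted p = 0.71), with 11.3, 16.5 and 4.43 CPM before and 10.7, 31.8 and 29 after. The intervals of both genes reached beyond a 2-fold rise.

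Complex II, succinate dehydrogenase, also belongs to the citric acid cycle. Sdha, its flavoprotein, had the highest level per length, 104 CPM per kb. Levels were 235, 233 and 195 CPM in uninjured meninges, 277, 143 and 283 after injury, and 169, 172 and 152 in lung. Uninjured meninges lay above lung in each library, and injured meninges spread over both. The difference from lung was 0.43 ± 0.26 (95% interval -0.13 to 0.99, adjusted p = 0.81) and that after injury 0.09 ± 0.26 (adjusted p = 0.97). Sdhd, a membrane anchor, had 23.5, 24.6 and 21.9 CPM in uninjured meninges, 24, 73.9 and 40.4 after injury, and 31.1, 22.7 and 9.48 in lung. Its difference after injury was 0.98 ± 0.57 (adjusted p = 0.66), and injured meninges 1 lay inside the uninjured range. Sdhb and Sdhc, the iron-sulfur subunit and the other anchor, differed by -0.27 ± 0.72 and -0.28 ± 0.52 after injury.

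In complex III, Uqcrc1 and Uqcrc2 are the core subunits. Uqcrc2 had 59.9, 24.1 and 56.8 CPM in uninjured meninges, 52.6, 50.2 and 107 after injury, and 32.9, 58.8 and 36.7 in lung. Its difference after injury, 0.58 ± 0.46 (adjusted p = 0.78), came with overlap between groups, injured meninges 3 being the highest library and uninjured meninges 2 the lowest. Uqcrc1 had 29.9, 17 and 44.5 CPM in uninjured meninges, 31.1, 19.6 and 25.4 after injury, and 8.54, 15.5 and 21.5 in lung. The difference from lung was 1.00 ± 0.59 (adjusted p = 0.78), with overlap between groups. Cycs, cytochrome c, which also triggers apoptosis once released, had 39.5 CPM per kb, just above Uqcrc2 at 39.1. It stood at 13.8, 14.6 and 9.61 CPM in uninjured meninges, 14.5, 6.76 and 4.14 after injury, and 8.11, 18.6 and 23.1 in lung. Unshared windows are those of the whole transcript, which for Cycs has 3123 bases, of which 318 are coding. Over them Cycs would stand at 5.72 CPM per kb and Uqcrc2 at 38.3, so the order depends on the length used. Cycs shared 28.5% of its windows with other genes, nearly all with Gm10053 (27.6%). Uqcrc2 shared 24.8%, with Pdzd9, so the values of both genes are uncertain. Uqcrfs1, the Rieske iron-sulfur protein, ranged from 0.636 CPM in injured meninges 2 to 23.4 in uninjured meninges 2.

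Complex IV, cytochrome c oxidase, had 7 nuclear members, of which 4 had a positive difference after injury (median 0.02) and 3 a positive difference between uninjured meninges and lung (median -0.25). Cox6a1, a regulatory subunit, had the highest level per length, 83.9 CPM per kb. It stood at 21.7, 27.4 and 15.2 CPM in uninjured meninges, 26, 51.9 and 7.02 after injury, and 35.6, 35.3 and 35.6 in lung. The lung libraries were nearly equal and above uninjured meninges, while injured meninges ranged on both sides, and the difference after injury was 0.40 ± 0.62, or -0.38 without injured meninges 2. The difference from lung was -0.73 ± 0.62 (adjusted p = 0.92).

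Cox4i1, the largest nuclear subunit, had 40.7, 48.7 and 33.8 CPM in uninjured meninges, 33.9, 5.33 and 42.5 after injury, and 16.6, 16.8 and 17.6 in lung. Uninjured meninges lay above lung in each library, by 1.27 ± 0.63 (95% interval -0.07 to 2.62, adjusted p = 0.66). Cox6c, a small structural subunit, had 25.2, 22.8 and 19.7 CPM in uninjured meninges, 30.9, 3.74 and 4.51 after injury, and 10.2, 18.4 and 9.61 in lung. In these genes injured meninges 2 was the lowest library, and injured meninges 1 lay within or above the uninjured range. The differences after injury were -0.59 ± 0.62 for Cox4i1 and -0.79 ± 0.82 for Cox6c (adjusted p = 0.85 each), and DESeq2 gave no adjusted p for Cox6c. Single libraries set these values: without injured meninges 1 Cox6c differed by -2.44 and without injured meninges 2 by -0.35, and Cox4i1 by -0.10 without injured meninges 2 and -1.06 without injured meninges 3. Cox5a, which had a mean of 3.63 CPM, shared 32% of its windows with other genes. The shares were 14.7% for Cox4i1, 13.9% for Cox6c and 12.3% for Cox6a1.

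Complex V, the ATP synthase, held the most abundant nuclear member. Atp5b, the catalytic beta subunit, had 220 CPM per kb. It stood at 420, 278 and 293 CPM in uninjured meninges, 482, 311 and 172 after injury, and 429, 410 and 358 in lung. All groups overlapped, with differences of -0.04 ± 0.30 after injury (95% interval -0.67 to 0.60) and -0.27 ± 0.30 from lung (-0.91 to 0.36). Atp5a1, the alpha subunit, had 136, 183 and 160 CPM in uninjured meninges, 128, 113 and 78.5 after injury, and 146, 121 and 85 in lung. Each injured library was below each uninjured one, by -0.58 ± 0.29 (95% interval -1.19 to 0.04; edgeR unadjusted p = 0.065, adjusted p = 0.59; DESeq2 adjusted p = 0.43). The alpha and beta subunits stand in equal number in the enzyme. Atp5c1, the central stalk's gamma subunit, had 47.5 to 79.8 CPM in all 9 libraries. Atp5o, the peripheral stalk subunit, had 2.95 to 19.6 CPM with 50.3% of its windows shared. The largest share with any 1 gene, 24.6%, was with a second annotated entry of the same name.

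Across the 30 nuclear members the median difference was -0.22 after injury (13 positive, 17 negative; -2.03 to 1.15) and 0.21 between uninjured meninges and lung (17 positive, 13 negative; -0.85 to 1.52). Standard errors had medians of 0.72 and 0.73, and 4 and 3 of the 30 intervals lay within 2-fold. The nuclear subunits thus allow far less to be said about small changes than the mitochondrial ones.

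**Figure D5:**
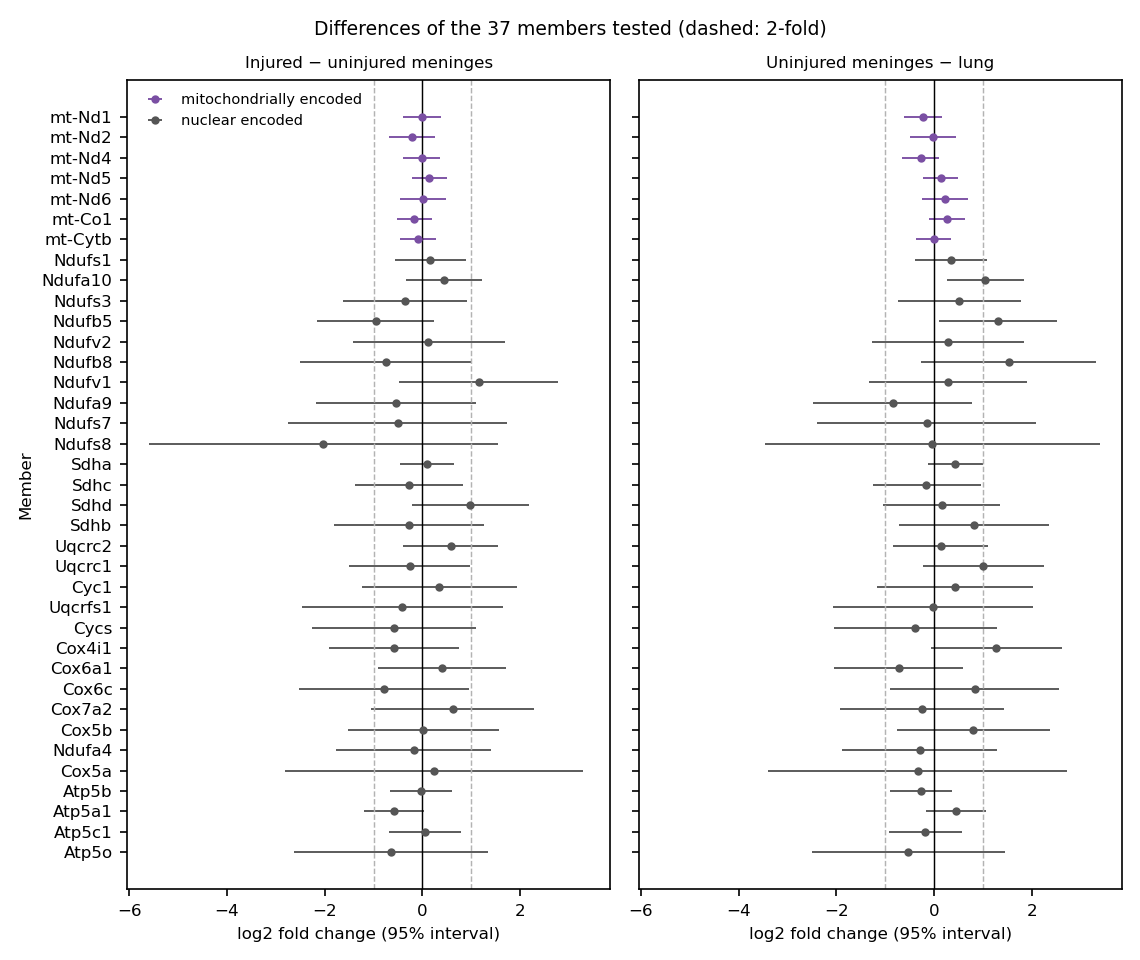
Log2 difference of each of the 37 members tested, with its 95% interval, for injured minus uninjured meninges (left) and uninjured meninges minus lung (right). Purple mitochondrial messages all lie within the dashed 2-fold lines, and grey nuclear members have wider intervals, among which only those of Ndufa10 and Ndufb5, on the right, leave out 0.

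Nuclear respiratory chain genes are known targets of NRF-1, of the ETS factor GABP and of YY1. RefSeq promoter sequences on GRCm38.p6, 250 bases before to 50 after the start, were found for 23 of the 30 nuclear members. The NRF-1 letters GCGCA and GCGC with any base between them, on either strand, occurred in 6 of 23 (26.1%) and in 5.19% of the promoters of all 27025 genes with such a sequence. The ETS letters CCGGAAG occurred in 5 (21.7%, against 9.93%), and the YY1 letters AAGATGGCG in 2 (8.7%, against 1.64%). Any of these was in 11 of 23 (47.8%), against 15.1% of all genes. The 27025 genes were not limited to the 15117 tested here, and the share among expressed genes was not taken. NRF-1 letters were in the promoters of Atp5c1, Atp5o, Cox6a1, Sdha, Sdhd and Uqcrc1. These are matches of letters, not binding sites. Stretches of the promoters of 2 complex II genes show how dense they can be, with motif letters in capitals.
Sdha, 100 to 1 bases before the start, chr13:74350241-74350340, minus strand: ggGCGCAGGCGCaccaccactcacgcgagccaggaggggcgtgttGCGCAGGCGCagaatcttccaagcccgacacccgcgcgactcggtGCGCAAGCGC
Sdhd, 110 to 11 bases before the start, chr9:50603860-50603959, minus strand: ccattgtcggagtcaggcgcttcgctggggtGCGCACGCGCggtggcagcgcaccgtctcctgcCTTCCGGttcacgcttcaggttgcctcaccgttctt
The Sdha stretch has NRF-1 letters alone, and in Sdhd the ETS letters stand in reverse complement (CTTCCGG) downstream of the NRF-1 letters.

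The regulators themselves were read from a list of 17 genes, of which 15 were tested and 0 called by edgeR in either comparison. At an unadjusted p under 0.05 there were 0 after injury and 1 between tissues, and DESeq2 called 0 in both. Nrf1, which encodes NRF-1, had 33.7, 73 and 35 CPM in uninjured meninges, 72.8, 98.3 and 89.2 after injury, and 84.5, 59.7 and 28.3 in lung. Injured libraries lay at the top of the range with a slight overlap, and the difference was 0.88 ± 0.44 (edgeR adjusted p = 0.59, DESeq2 0.4). Myc, a growth regulator that also raises mitochondrial genes, had 51.2, 91.4 and 106 CPM in uninjured meninges. Its levels were 37.9, 81.9 and 29.6 after injury and 38.2, 35.3 and 37.9 in lung. Injured meninges overlapped with both other groups. The difference of uninjured meninges from lung was 1.16 ± 0.44 (edgeR adjusted p = 0.41). The coactivator Ppargc1b differed by 0.05 ± 0.89 after injury (adjusted p = 1). Its relative Ppargc1a had 26, 0 and 0 counts in uninjured meninges, 1, 0 and 0 after injury, and 139, 0 and 236 in lung.

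Further genes of the pathway were read from lists of genes outside the 43. Of all genes, edgeR called 0.192% after injury and 0.635% between tissues. An unadjusted p under 0.05 was had by 8.94% and 7.98%, and DESeq2 called 2.86% and 3.53%. These shares stand beside the counts of each list below and of the regulators above. Of 47 other subunits of complexes I, III, IV and V, all tested, edgeR called 0 in either comparison, 0 had an unadjusted p under 0.05 and DESeq2 called 0. Their median difference was -0.27 after injury (16 positive) and 0.20 between uninjured meninges and lung (30 positive), beside -0.22 and 0.21 in the 30 nuclear members. The smallest p-values were those of Ndufa3 after injury (2.05 ± 1.00, adjusted p = 0.58) and Ndufab1, the acyl carrier protein, between tissues (1.40 ± 0.78, adjusted p = 0.75). Of 9 tissue-restricted isoforms 6 had a row and 0 passed the filter, with a summed level of at most 6.41 CPM in any library.

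Of 43 assembly factors 40 were tested and edgeR called 0 in either comparison. After injury 2 had an unadjusted p under 0.05 and DESeq2 called 1, and between tissues both counts were 0. That gene was Lyrm7, a chaperone of the Rieske protein Uqcrfs1, with 39, 52 and 72 counts in uninjured meninges, 0, 0 and 1 after injury, and 44, 2 and 2 in lung (edgeR adjusted p = 0.45, DESeq2 0.014). It was low in 2 lung libraries as well. Cox17, a copper chaperone for complex IV, had the smallest p between tissues (1.05 ± 0.57, adjusted p = 0.72).

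Of 23 genes of mitochondrial transcription, replication and RNA handling 22 were tested, and edgeR called 0. After injury 3 had an unadjusted p under 0.05 and DESeq2 called 0, and between tissues 1 had such a p and DESeq2 called 1. Pnpt1, the mitochondrial polynucleotide phosphorylase, had 62.3, 59.5 and 66.4 CPM in uninjured meninges and 123, 199 and 101 in injured meninges, with no overlap (1.17 ± 0.36; edgeR adjusted p = 0.35, DESeq2 0.071). Tfam, which packages mitochondrial DNA and starts its transcription, had 21.5, 28.1 and 25.9 CPM in uninjured meninges, 10.1, 18 and 20.7 after injury, and 23.5, 14.6 and 14 in lung. Its injured libraries lay below the uninjured ones (-0.63 ± 0.59; edgeR adjusted p = 0.83, DESeq2 0.57). Polg2, the accessory subunit of the mitochondrial DNA polymerase, had 9.8, 14.2 and 21.1 CPM in uninjured meninges and 56.8, 80.5 and 66.5 in lung (-2.18 ± 0.56; edgeR adjusted p = 0.12, DESeq2 0.0031). All 3 lung libraries of Polg2 were above every meningeal one, since injured meninges had 22.3, 23.2 and 6.2 CPM.

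In the citric acid cycle and pyruvate dehydrogenase, all 16 genes were tested, and neither edgeR nor DESeq2 called any (0 each). After injury 2 had an unadjusted p under 0.05, and between tissues 0 did. Pdhb, the beta subunit of pyruvate dehydrogenase, had 48.4, 46.1 and 62.7 CPM in uninjured meninges and 89.2, 90.2 and 93.4 in injured meninges (0.80 ± 0.34, edgeR adjusted p = 0.52, DESeq2 0.17). Of 10 genes of mitochondrial dynamics and mitophagy edgeR called 0, 0 had an unadjusted p under 0.05 and DESeq2 called 0. The smallest p-values there were those of Opa1, the inner membrane fusion protein (-0.42 ± 0.28 after injury, adjusted p = 0.71), and Bnip3l, a mitophagy receptor (0.60 ± 0.30 between tissues, adjusted p = 0.67).

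The single edgeR call over the pathway lists was between tissues, where 0.635% of all genes were called. The gene was Slc25a3, the carrier that brings phosphate into the mitochondrion for the ATP synthase. It stood among 12 carriers, uncoupling and antioxidant genes, of which 10 were tested. After injury edgeR called 0 of these, 2 had an unadjusted p under 0.05 and DESeq2 called 1, and between tissues each of the 3 counts was 1. Slc25a3 had 198, 260 and 212 CPM in uninjured meninges, 219, 227 and 240 after injury, and 461, 924 and 1193 in lung. Each lung library exceeded all 6 meningeal libraries, and the meningeal groups overlapped. It was lower in uninjured meninges than in lung by -1.94 ± 0.28 on the log2 scale (95% interval -2.54 to -1.34, edgeR adjusted p = 0.0029), and after injury differed by 0.03 ± 0.27. The call held in 16 of 16 alternatives, from -2.24 to -1.63, with adjusted p from 2.2e-07 to 0.017. The adenine nucleotide carrier Slc25a4, which exchanges ADP for ATP, had 62.3, 47.1 and 35.1 CPM in uninjured meninges, 25.9, 20.8 and 16.9 after injury, and 44.2, 45.1 and 54.6 in lung. Injured libraries were below all others, by -1.18 ± 0.43 from uninjured meninges (edgeR adjusted p = 0.48, DESeq2 0.028).

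Lung libraries also carried more transcripts of other cell types. The 6 lung epithelial markers summed to 4.03 to 11.6 CPM in uninjured meninges, 10.5 to 27.6 in injured meninges and 2145, 683 and 1294 in lung, and all 6 had negative differences between uninjured meninges and lung. Sftpc was at 0 in injured meninges. The 5 endothelial markers summed to 42.7 to 134, 45.9 to 114 and 151 to 465 CPM. The 6 fibroblast markers summed to 3.29 to 77.3, 3.89 to 33.7 and 84.5 to 249 CPM, with Pdgfra and Lum at 0 in injured meninges. The 8 monocyte and macrophage markers summed to 28.1 to 71.1 and 26.8 to 122 CPM in the meningeal groups and to 357, 13 and 464 in lung, with Cd14 at 0 in uninjured meninges. Slc25a3 was 461 CPM in lung 1, which had the highest epithelial and endothelial sums, 924 in lung 2, which had the lowest sum of all 4 lists, and 1193 in lung 3, which had the highest macrophage and fibroblast sums. The part of these cells in the differences of Slc25a3, Polg2, Ndufa10 or Ndufb5 was not tested. In any library the T cell markers summed to at most 103 CPM, B cell markers to 75.5, neural and glial markers to 202, erythroid markers to 57.6 and mast cell and basophil markers to 22.5. Striated and cardiac muscle, tissues rich in respiratory chain transcripts, were nearly absent by their 6 markers, which summed to at most 28.2 CPM, in injured meninges 1.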

How the data were processed

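RNA of 9 libraries was analysed from the table the authors deposited, which holds raw read counts per gene and no normalized values. The tools STAR, HTSeq and FastQC and the build mm9 are named, without versions, per the submitters' processing notes. Strand use and the handling of multiply aligned reads are not given in the sources used here. The table gave a symbol for 15969 of 23466 genes, and its lowest total over the 9 libraries was 2 counts. Gene names, coding lengths (longest coding sequence) and transcripts came from GENCODE M21 by Ensembl identifier.

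The test was edgeR's (4.0.16, under R 4.3.3) robust quasi-likelihood F test. The filter was filterByExpr on the group, the scaling TMM (trimmed mean of M values), and 1 fit of group means covered the 9 libraries. Adjusted p-values are Benjamini-Hochberg values over the 15117 genes tested, and a call is an adjusted p under 0.05. A standard error is the log2 fold change over the root of the F statistic, and intervals are at 95%. The common coefficient of biological variation came to 0.906. The procedure was tested on simulated data. No libraries agreed within sampling noise (lowest chi-square per degree of freedom 62.8).

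Alternatives were DESeq2 1.42.0, 3 other scalings, no filter, the 6 libraries compared, a replicate block and leaving out each library, 16 in all per comparison. Members, lists and motifs were chosen with earlier results of these data known. Values in each library are given for every mitochondrial message with a row and, per nuclear complex, for the member highest per coding length and those with the smallest p in each comparison. From the 9 pathway lists, called genes and those with the smallest p are given. A few more are named: Ndufs1, Ndufs8, Ndufv1, Sdhb, Sdhc, Uqcrfs1, Cox5a, Atp5c1, Atp5o, Tfam, Ppargc1a and Ppargc1b, chosen after their values were seen, and Mrpl47 for its overlap.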

Additional observations from a re-analysis of the deposited data

How the results depend on the processing

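The count of members called was 0 in both comparisons in all 16 alternatives except DESeq2, which called 2 between uninjured meninges and lung (Ndufa10 and Ndufb5). Leaving out each library in turn called 0 members in all 9 fits of both. The 7 mitochondrial messages stayed between -0.40 and 0.24 on the log2 scale after injury and between -0.41 and 0.36 between tissues, with a lowest adjusted p of 0.59 and 0.56. Signs of uncalled differences were less stable: 11 of 19 named members changed sign under some alternative after injury, and 4 of 19 between tissues. Upper-quartile scaling moved the median of all genes after injury to -0.10, and the fit without injured meninges 1 to -0.11.

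Over all genes, the 29 calls after injury became 78 without a filter, 12 with only the 6 libraries compared and 435 with DESeq2 (213 higher). The 96 calls between tissues became 193, 226 and 536 (99 higher). Leaving out 1 library gave 18 to 27 and 51 to 196 calls. The lowest counts after injury came without injured meninges 2 (18) and uninjured meninges 2 (19, of which 10 higher). Between tissues the count was 51 without lung 3, 53 without uninjured meninges 2 and 196 without injured meninges 2. The cause was not tested. As shares of counts without mitochondrial ribosomal RNA, the mitochondrial messages with a row took 3.38%, 2.94% and 2.92% in uninjured meninges, injured meninges and lung. The nuclear members took 0.196%, 0.18% and 0.164%.

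Whether replicate numbers mark pairs of libraries is not known. In their deviations from group means, same-numbered libraries correlated at -0.0394 to 0.1, with 0 of 9 over 0.1. The own number was the best match in 7 of 18 cases. With 3 libraries per group such values cannot exclude a pairing. With the replicate number as a block there were 43 calls after injury (33 higher), against 29 without it. Between tissues there were 136, against 96, and 0 members were called in both.

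Counting alone gives a median coefficient of variation of 6.1% for the nuclear members and 0.597% for the mitochondrial messages. Within groups the medians were 37.7% and 13.6%. The counting values take each read as a separate molecule, which does not hold for amplified cDNA. The part of depth in the spread was not tested. Over the 30 nuclear members 4 intervals after injury and 3 between tissues lay within 2-fold, against 7 of 7 mitochondrial messages in both.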
